A study of Mus musculus with 800 samples.

Results

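Heterotrimeric G protein subunits were followed across the capture chambers of a chip of mouse vomeronasal sensory neurons. The set held 8 genes chosen by name from the rows of the count table, out of 28963 genes in all: the alpha subunits Gnai2, Gnao1 and Gnas, the beta subunits Gnb1 and Gnb2, and the gamma subunits Gng2, Gng8 and Gng13. All 8 were found in the table. The cells came from 7 male OMP(GFP/wt) mice, which carry GFP in place of 1 copy of the olfactory marker protein gene Omp, of the strain B6;129P2-Omptm3Mom/MomJ and aged 66 days. No mouse received a treatment in the labels, and every chamber shares this genotype, so chambers of all states come from Omp heterozygotes in which Omp-positive cells had been selected. The tissue of 3 and of 4 mice was pooled, live nucleated GFP-positive cells were sorted, and both pools went on 1 Fluidigm C1 chip with 800 chambers. The labels gave the state of each chamber after loading: 49.25% of the 800 held a single cell, 40.6% were empty, 63 chambers held multiple cells and 18 were marked putative single cell. The pool that a chamber received was not given, so chambers were not counted as replicates of a condition and no test between groups was made.

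A heterotrimeric G protein consists of an alpha subunit, which binds GTP, and a tightly joined pair of a beta and a gamma subunit. An activated receptor loads the alpha subunit with GTP, after which the alpha subunit and the beta-gamma pair act separately on channels and enzymes. In the vomeronasal organ, neurons of the apical layer use the alpha subunit Gnai2 with receptors of the V1R family, and neurons of the basal layer use Gnao1 with receptors of the V2R family. Gnas stimulates adenylyl cyclase in most tissues, Gnb1 and Gnb2 are widely expressed beta subunits, Gng13 is known from olfactory and taste cells, and Gng8 was described in developing olfactory and vomeronasal neurons.

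Each value is a count of different 5-base molecular identifiers for tags at the 3′ ends of transcripts, with no scaling to transcript length. Single-cell chambers held 6521 to 260930 counts, with a median of 149648, multiple-cell chambers a median of 181883, and empty chambers a median of 20731 with values up to 319287, so the empty chambers were not free of RNA. Square brackets give exact 95% intervals, Clopper-Pearson for shares and conditional binomial for ratios of summed counts. They cover counting error only, and treat each identifier as a molecule. Among 4827 genes that reached 10 counts in 20 to 80 of the single-cell chambers, the median count where they did so was 33.5, so a rarely detected gene tended to come with many counts in a few chambers. The intervals of ratios are therefore too narrow for such genes, and the share of chambers with at least 10 counts is given beside them.

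The 8 genes are protein coding and lie on 8 different chromosomes of GRCm38. In the GENCODE vM21 annotation Gnai2 spans chr9:107614125-107635367 on the minus strand, Gnao1 chr8:93809966-93969388 on the plus strand and Gnas chr2:174284320-174346744 on the plus strand. Gnb1 spans chr4:155491361-155559269 on the plus strand and Gnb2 chr5:137528127-137533510 on the minus strand. Gng2 spans chr14:19872559-19977627 on the minus strand, Gng8 chr7:16891786-16895436 and Gng13 chr17:25717171-25719406 on the plus strand. Exons of 5 of them overlap an exon of another gene: Gnb2 shares exonic sequence with Epo on the same strand, Gnas with Nespas and Gm20721, Gng13 with Chtf18, Gng2 with Gm48283 and Gnao1 with 4930488L21Rik on the opposite strand. Whether the counting used strand is not given in the sources used here. Chtf18 reached 10 counts in 4 single-cell chambers, Nespas had 3 counts over all of them, and the other overlapping genes were not analysed here. Reads of Gnas and Gnb2 in particular may have been split or set aside in counting, and the part of this in their low values was not tested.

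The promoter windows of Gng2, Gng13, Gng8 and Gnao1 are shown because Gng2 and Gng13 followed Gnai2 across chambers, Gng8 was counted with either alpha subunit and Gnao1 stood opposite. They come from RefSeq on GRCm38.p6, run from 250 bases before to 50 bases after a transcript start, and are written 5′ to 3′ on the gene's strand. Entries were matched for 7 of the 8 genes. Capitals mark matches to the letters GCCNNNGGC (bound by TFAP2 factors) or CCCNNGGG (bound by EBF factors), searched on both strands.
Gng2 (chr14:19976644-19976943, minus strand): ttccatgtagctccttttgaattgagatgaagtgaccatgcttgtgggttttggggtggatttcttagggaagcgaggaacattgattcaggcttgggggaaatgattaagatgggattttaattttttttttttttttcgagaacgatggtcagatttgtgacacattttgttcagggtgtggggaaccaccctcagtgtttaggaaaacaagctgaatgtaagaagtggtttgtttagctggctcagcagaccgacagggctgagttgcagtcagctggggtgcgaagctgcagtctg
Gng13, first entry (chr17:25716922-25717221, plus strand): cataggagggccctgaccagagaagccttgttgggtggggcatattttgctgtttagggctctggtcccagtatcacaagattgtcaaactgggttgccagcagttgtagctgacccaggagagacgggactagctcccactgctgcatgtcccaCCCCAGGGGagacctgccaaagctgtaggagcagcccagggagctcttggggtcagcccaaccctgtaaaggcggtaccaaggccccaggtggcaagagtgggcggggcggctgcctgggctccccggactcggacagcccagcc
Gng13, second entry (chr17:25717278-25717577, plus strand): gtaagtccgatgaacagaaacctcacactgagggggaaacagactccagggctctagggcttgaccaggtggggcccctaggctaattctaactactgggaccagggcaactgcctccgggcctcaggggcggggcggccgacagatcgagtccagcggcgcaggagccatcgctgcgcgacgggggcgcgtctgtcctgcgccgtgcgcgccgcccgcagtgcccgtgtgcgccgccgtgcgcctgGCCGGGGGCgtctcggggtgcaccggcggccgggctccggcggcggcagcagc
Gng8 (chr7:16891536-16891835, plus strand): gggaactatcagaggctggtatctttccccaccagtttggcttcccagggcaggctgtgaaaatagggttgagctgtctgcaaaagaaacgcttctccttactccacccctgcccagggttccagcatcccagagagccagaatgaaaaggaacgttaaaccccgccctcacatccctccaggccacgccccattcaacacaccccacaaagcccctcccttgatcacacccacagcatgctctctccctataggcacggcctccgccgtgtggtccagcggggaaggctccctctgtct
Gnao1 (chr8:93810588-93810887, plus strand): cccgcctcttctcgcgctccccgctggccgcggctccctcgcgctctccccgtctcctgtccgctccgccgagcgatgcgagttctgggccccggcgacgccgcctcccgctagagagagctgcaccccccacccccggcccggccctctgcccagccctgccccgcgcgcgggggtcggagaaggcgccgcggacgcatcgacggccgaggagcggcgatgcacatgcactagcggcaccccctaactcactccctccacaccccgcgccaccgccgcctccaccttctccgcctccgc

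The windows differ in base composition. The Gng2 window is 44.7% G or C with 5 CpG steps, the Gng8 window 58% with 8, and the Gnao1 window 76.3% with 42. The first Gng13 window is 62% G or C with 6 CpG steps and the second 72% with 34. The first Gng13 window holds a pair of overlapping CCCNNGGG matches, 95 and 94 bases before the start, and the second a GCCNNNGGC match that spans the start. No match to either word, to TGACAG (bound by MEIS factors) or to TAATTA (a homeodomain word) was found in the windows of Gng2, Gng8 and Gnao1, which says only that these letters are not in these windows. Of 32851 RefSeq promoter windows of the same length, 16.6% hold GCCNNNGGC, 13.7% CCCNNGGG, 19.2% TGACAG and 5.29% TAATTA. The matches are a description and not evidence of binding.

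Most single-cell chambers held tags of mainly 1 of the main alpha subunits. A chamber was called Gnai2-dominant or Gnao1-dominant when that gene had at least 10 counts and at least 3 times the count of the other. By this rule 73.1% [68.4–77.4] of single-cell chambers were Gnai2-dominant and 65 chambers were Gnao1-dominant (16.5% [12.97–20.54]). A further 35 held at least 10 counts of each with neither 3 times the other (8.88% [6.27–12.1]), and 6 met neither condition. The rule compares the counts of 2 genes in the same chamber as tags, not as molecules per cell. The 4 classes had similar depth except the last, with median totals of 149648, 152757, 145049 and 96068 counts.

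Levels are given from here as counts per 10000 counts of all genes other than receptors, as lowest, median and highest chamber. In the Gnai2-dominant chambers Gnai2 had 0.882, 7.11 and 16.8 per 10000, and Gnao1 had 0, 0.0678 and 3.67. In the Gnao1-dominant chambers Gnao1 had 1.73, 5.18 and 11.4 per 10000, and Gnai2 had 0.0603, 0.417 and 1.88. In raw counts the medians were 108.5 of Gnai2 and 1 of Gnao1 in the former and 7 of Gnai2 and 78 of Gnao1 in the latter. No Gnao1-dominant chamber was free of Gnai2 tags, whereas 38.2% of Gnai2-dominant chambers had 0 counts of Gnao1. Chambers labelled empty show how many tags were counted with no captured cell by label: their medians were 22 counts of Gnai2 and 2 of Gnao1, at a median total of 20731. Gnai2 reached 10 counts in 27.7% of Gnao1-dominant and 82.2% of empty chambers. Gnao1 reached 10 counts in 5.90% of Gnai2-dominant and 16.9% of empty chambers. The rule of dominance limits the minor alpha in its classes but not in empty chambers, so these shares are not compared. Empty chambers reached high totals themselves, and the source of the minor alpha tags was not tested.

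**Figure D1:**
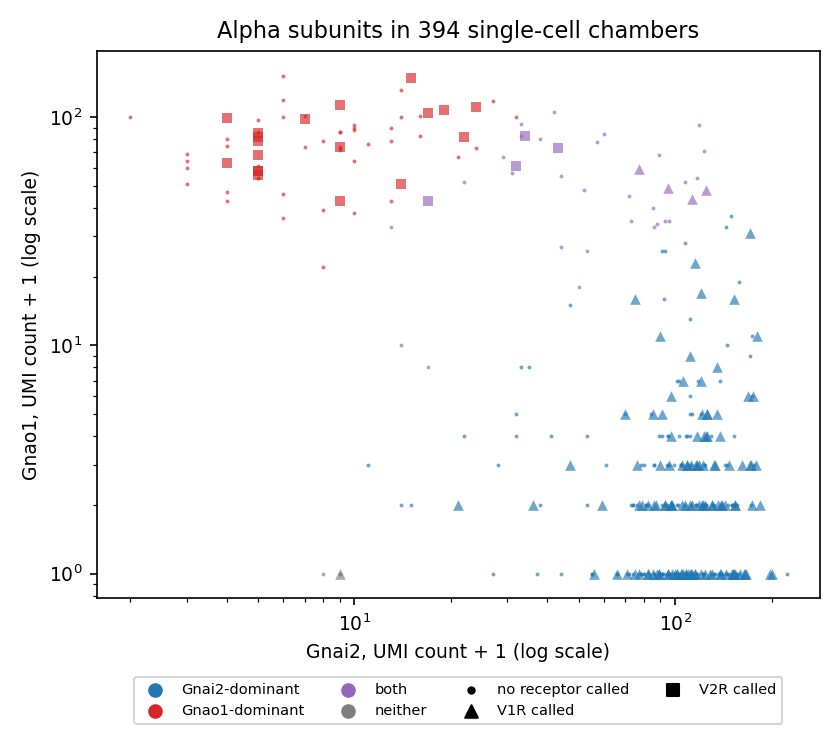
Counts of Gnai2 (x axis) and Gnao1 (y axis), each plus 1 on a log scale, in single-cell chambers; each point is a chamber, its colour the alpha class and its shape the family of the called receptor. Chambers gather along the edges, with median counts of 108.5 Gnai2 and 1 Gnao1 in the Gnai2-dominant class or 78 Gnao1 and 7 Gnai2 in the Gnao1-dominant class, and 35 lie between.

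Counted without the rule of dominance, 70 single-cell chambers had at least 10 counts of both Gnai2 and Gnao1 (17.8% [14.1–21.9]). In multiple-cell chambers the same was found in 17 of 63 (26.98% [16.57–39.65]) and in 41 empty chambers (12.6% [9.21–16.7]). Of the 25 empty chambers whose totals reached the lower quartile of single-cell chambers, 11 held both (44% [24.4–65.1]). The intervals of single-cell and multiple-cell chambers overlap. The single-cell share also moved with the position of a chamber, which its title gives as a row and a number within the row: it was 10.4% [6.65–15.4] in title numbers 1 to 10 and 26.2% [20.02–33.23] in title numbers 11 to 20, at median totals of 147318 and 153674. With each chamber thinned to 50000 counts and 8 shallower chambers left out, it was 7.25%, and 17.9% in the same chambers before thinning. In contrast, the Gnai2-dominant share was 74.9% and 71.04% in the lower and higher title numbers. Whether title numbers go with the pools of mice is not given in the labels, so position and pool cannot be told apart.

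Gng2 and Gng13, gamma subunits, were abundant in Gnai2-dominant and low in Gnao1-dominant chambers, while Gng8 and the beta subunit Gnb1 were abundant in both. In Gnai2-dominant chambers Gng2 had 0.0766 per 10000 in the lowest, 6.42 in the median and 11.8 in the highest chamber. In the 65 Gnao1-dominant ones it had 0, 0.275 and 4.19 per 10000. The ranges overlap, but 96.5% of the former and 16 of the latter (24.6%) reached 10 counts. In raw counts the medians were 95 and 4. Scaled to the summed counts of all genes other than receptors, Gng2 was 10.3-fold [9.53–11.2] higher in Gnai2-dominant chambers. Empty chambers held a median of 12 counts of Gng2 and 58.8% of them reached 10 counts, a larger share than in Gnao1-dominant chambers. The ratio was 13.3 in title numbers 1 to 10 and 7.82 in 11 to 20.

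Gng13 had 0, 5.61 and 12.3 per 10000 in the lowest, median and highest of the Gnai2-dominant chambers, and 0, 0.249 and 6.19 in those of the Gnao1-dominant chambers. Its median raw counts were 85 and 4. It reached 10 counts in 94.4% of the former and in 10 of 65 of the latter (15.4%), against 40% of empty chambers. Its scaled ratio was 11.6 [10.6–12.7], with 13.6 in the lower and 9.47 in the higher title numbers. Gng2 and Gng13 thus had the same order in the classes and ratios of similar size.

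Gng8 had 0.713, 9.18 and 29.3 per 10000 in the lowest, median and highest Gnai2-dominant chamber and 1.99, 10.3 and 17.99 in the Gnao1-dominant chambers. All but 1 chamber of each class reached 10 counts. The groups overlap almost completely, and the scaled level was 1.11-fold [1.09–1.14] higher in Gnao1-dominant chambers. Over the alternatives tried, the ratio of Gnai2-dominant to Gnao1-dominant chambers stayed between 0.833 and 0.948.

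Gnb1, the most widely shared member, was above 10 counts in every single-cell chamber. It ran from 1.92 to 23.4 per 10000 in Gnai2-dominant and from 4.48 to 15.7 in Gnao1-dominant chambers, with medians of 9.61 and 9.52 and a scaled ratio of 1.02 [1.00–1.05]. Gnb2 was sparse: 65.99% of single-cell chambers had 0 counts, and it reached 10 counts in 51 Gnai2-dominant (17.7% [13.5–22.6]) and 6 of 65 Gnao1-dominant chambers (9.23% [3.46–19.02]). Its summed ratio of 2.01 therefore rests on few chambers whose shares have overlapping intervals. Gnas had 0 counts in 78.7% of single-cell chambers and reached 10 in 23 Gnai2-dominant (7.99% [5.13–11.7]) and 8 Gnao1-dominant chambers (12.3% [5.47–22.8]), with medians of 0 in both classes and a summed ratio of 0.751. It was the sparsest of the 3 alpha subunits in single-cell chambers by this share, and the exon overlap given above applies to it.

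**Figure D2:**
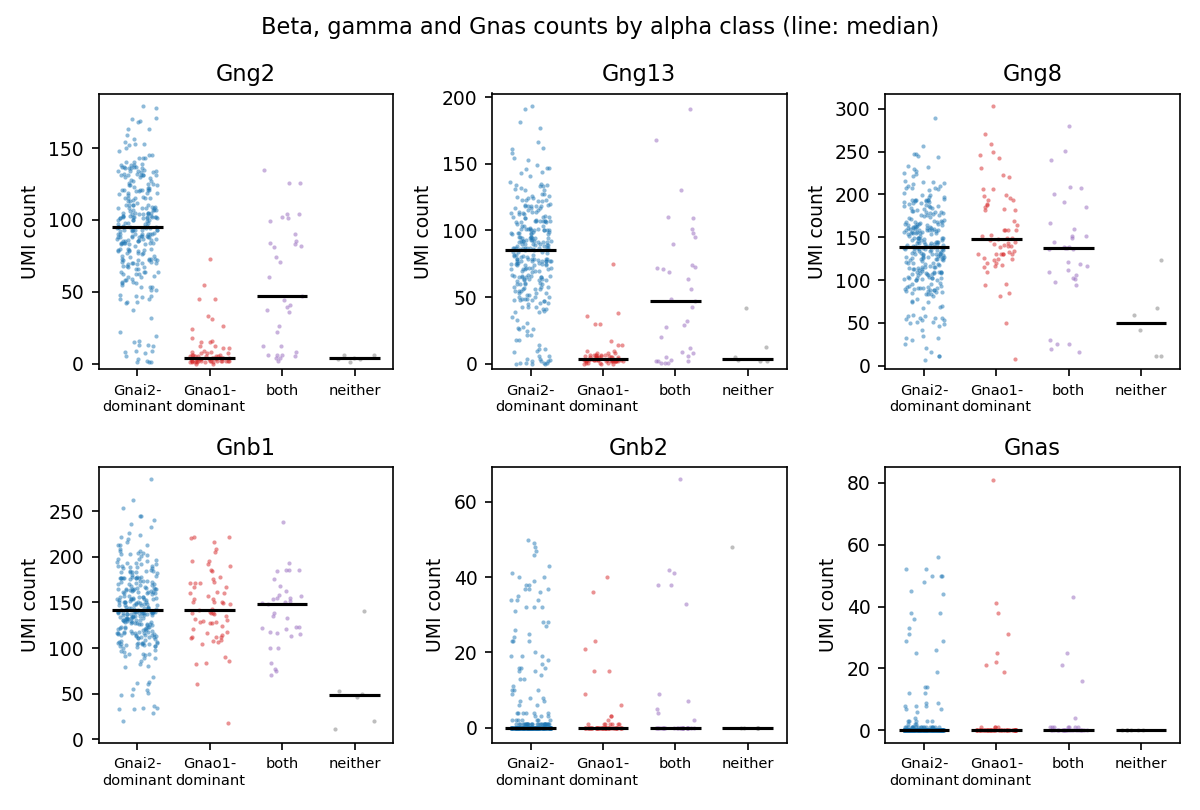
UMI counts (y axis) of Gng2, Gng13, Gng8, Gnb1, Gnb2 and Gnas in single-cell chambers of each alpha class (x axis; Gnai2-dominant, 65 Gnao1-dominant, 35 with both and 6 with neither); points are chambers and lines medians. Gng2 and Gng13 have medians of 95 and 85 in Gnai2-dominant and of 4 in Gnao1-dominant chambers, while the points of Gng8 and Gnb1 overlap between both dominant classes.

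Over all genes with at least 50 counts in both classes together, and at least 10 counts in 25% of the chambers of the higher class, 2.38% of 5218 were at least 2-fold higher in Gnai2-dominant and 2.97% in Gnao1-dominant chambers. Of the 8 members 6 met the minimum, and of these Gnai2, Gng2 and Gng13 were 2-fold higher in Gnai2-dominant chambers, Gnao1 in Gnao1-dominant chambers, and Gng8 and Gnb1 in neither. Gnai2 and Gnao1 define the classes, so their part in this count is no finding. Gnb2 and Gnas did not meet the minimum.

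The gamma subunits were also read jointly in each chamber. At least 10 counts of both Gng2 and Gng13 were present in 92.7% [89.1–95.4] of Gnai2-dominant chambers, in 5 of 65 Gnao1-dominant chambers (7.69% [2.54–17.05]) and in 21 of the 35 that held both alpha subunits (60% [42.1–76.1]). Neither gamma subunit reached 10 counts in 5 Gnai2-dominant chambers (1.74%), 44 Gnao1-dominant chambers (67.7% [54.9–78.8]) and 5 of the 35. Gng8 accompanied all of these combinations.

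A few Gnai2-dominant chambers had low counts of Gng2 or Gng13. Gng2 was under 10 counts in 10 of the Gnai2-dominant chambers and Gng13 in 16, and both were in 5. The 10 chambers with low Gng2 had a median total of 106266 counts against 150510 in the others. Per 10000 their median Gnai2 was 3.60 against 7.13, Gnb1 4.97 against 9.66, Gng8 3.97 against 9.28 and Omp 0.979 against 5.88. Of these 10, 6 also held at least 10 counts of Sox2 or Cyp2a5, markers of sustentacular cells, against 14 of the others (5.04%). Among the 16 with low Gng13, 6 held such counts. The part of these markers in the low gamma counts was not tested.

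In the 35 chambers with both alpha subunits, the gamma levels moved with the balance of the alphas. Gng2 ran from 0.179 to 11.5 per 10000, with a median of 5.46 in the 20 chambers where Gnai2 made up more of the alpha tags and 0.641 in the other 15. Gng13 ran from 0.0691 to 12.2 per 10000, with medians of 4.82 and 0.368. Gng8 had medians of 8.98 and 9.06 and Gnb1 of 8.999 and 9.87 per 10000, which are close together. As a description over these 35 chambers, Spearman's correlation with the Gnai2 share of Gnai2 plus Gnao1 counts was 0.64 for Gng2, 0.47 for Gng13, -0.08 for Gng8 and -0.04 for Gnb1. Markers of the apical layer, Meis2 (0.39) and Nrp2 (0.42), and of the basal layer, Robo2 (-0.45) and Tfap2e (-0.20), had values of opposite sign. Whether such chambers held 1 cell, more than 1 cell or tags from neighbours cannot be told apart with these labels.

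**Figure D3:**
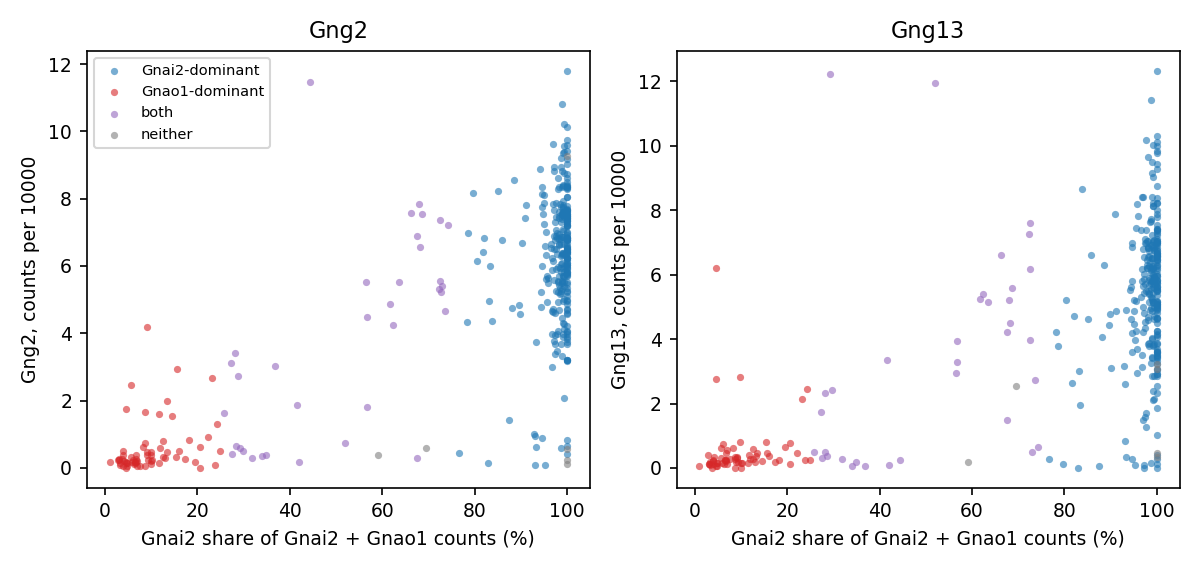
Gng2 (left) and Gng13 (right) in counts per 10000 (y axis) against the Gnai2 share of Gnai2 plus Gnao1 counts in percent (x axis) in single-cell chambers, coloured by alpha class. Gnao1-dominant chambers lie low at the left, Gnai2-dominant chambers high at the right, and the 35 chambers with both alphas spread between them.

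Receptor calls give a grouping that uses no G protein. A chamber was called by its most counted V1R or V2R gene outside V2R family C when that gene had at least 10 counts and 50% of such receptor counts, which made 32.5% [27.9–37.4] of single-cell chambers V1R and 23 chambers (5.84%) V2R. All V1R calls fell outside the Gnao1-dominant class (4 in chambers with both alphas, 1 with neither and the rest Gnai2-dominant), and no V2R call fell in the Gnai2-dominant class (19 Gnao1-dominant, 4 with both). A count of 0 among the V1R and among the V2R chambers allows shares of up to 2.34% and 13.04%, as 3 divided by the number of chambers. Gnai2 ran from 0.744 to 15.7 per 10000 with a median of 7.16 in V1R chambers, and from 0.177 to 2.90 with a median of 0.571 in V2R chambers, a ratio of 8.57 [7.63–9.66]. Gnao1 ran from 0 to 3.22 per 10000 with a median of 0.0678 in V1R chambers and from 2.81 to 10.8 with a median of 5.18 in V2R chambers, 22.7-fold [20.5–25.2] higher in the latter. Each alpha subunit overlapped little between the families.

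The gamma subunits divided along the same line. Gng2 had medians of 6.77 (0.0961 to 10.8) and 0.277 (0 to 3.04) per 10000 in V1R and V2R chambers, an 11.99-fold [10.37–13.94] ratio. Gng13 had medians of 5.87 (0.0781 to 12.3) and 0.234 (0.0593 to 6.19), a 10.3-fold [8.93–11.97] ratio. Gng8, with medians of 9.72 and 10.1 per 10000, had a ratio of 0.957 [0.923–0.993] and Gnb1, with medians of 9.76 and 9.96, a ratio of 1.00 [0.964–1.04]. Gnas reached 10 counts in 12 V1R chambers and 1 V2R chamber, and Gnb2 in 18 and 1. By the same 2-fold and 25% rule, 5.12% of 5453 genes were higher in V1R and 5.85% in V2R chambers. Among the members, 6 met the minimum: Gnai2, Gng2 and Gng13 were higher in V1R chambers, Gnao1 in V2R chambers and Gng8 and Gnb1 in neither. The receptor classes share most of their chambers with the alpha classes and are not a second sample. With receptor counts kept only where they stood above other chambers of the same title row and number, more chambers received a V1R call and 46 a V2R call, and the Gnai2 ratio was 3.63. It was 49.1 with the median of empty chambers subtracted, 13.3 in title numbers 1 to 10 and 5.62 in 11 to 20, above 1 in each. How the corrected calls fell over the alpha classes was not counted.

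Over all single-cell chambers Gnai2 correlated most with Gng2 among 2114 genes with a mean of at least 20 counts (Spearman's correlation 0.68 on counts per 10000), Gng13 followed at rank 5 (0.57), and Gng13 had the lowest correlation of all with Gnao1 (-0.50). Within Gnai2-dominant chambers the correlation of Gnai2 with Gng2 was 0.34 and with Gng13 0.21, lower than with Gnb1 (0.55, rank 3 of 2134), and Gnb1 with Gng8 had 0.56. Within the 65 Gnao1-dominant chambers Gnb1 with Gng8 had 0.62 and Gnao1 with Gng8 0.37. Gng2 and Gng13, both at medians of 4 counts there, had 0.53, the highest partner of either among 2287 genes, and Gnai2, at a median of 7, had 0.42 with Gng13 (rank 2) and 0.41 with Gng2 (rank 3). In the 35 chambers with both alphas Gnai2 had its highest correlation among 2197 genes with Gng2 (0.78). All these chambers share a chip and a denominator, so the values are descriptions.

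The genes most like each member, apart from members and receptors, came from 10055 genes over all single-cell chambers. For Gnai2 they were Rtp1, a receptor-transporting protein (correlation 0.64), Plekhb1, Cystm1, Nsg1 and Fam213a. Gng2 had Rtp1, Cystm1, Nsg1, Plekhb1 and Meis2, and Gng13 had Nsg1 (0.60), Plekhb1, Rtp1, Cystm1 and Gm9294, so Rtp1, Nsg1, Plekhb1 and Cystm1 stood in the lists of all 3. For Gnao1 they were Cnpy1 (0.67), Robo2, Krt8, Tfap2e and Gm36028, none of which stood in the other lists. For Gng8 they included Selm, Tecr, Rn18s-rs5 and Stbd1. Rtp1 had medians of 5.09 and 0.241 per 10000 in the Gnai2-dominant and Gnao1-dominant chambers, and Cnpy1 of 0.0593 and 5.32.

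Other genes of the pathway were sparser. Among 13 other alpha subunits 1 met the 25% minimum between the alpha classes, of 3 other beta subunits none, and of 9 other gamma subunits 2, none of them 2-fold apart. The gamma subunits were Gng3, with medians of 55 and 46 counts and a ratio of 1.15 [1.11–1.20], and Gng5, with medians of 2 and 1 and a ratio of 1.46. Of 8 chaperones and processing enzymes 4 met the minimum, of 23 regulators 4 (2 kinases stand in that list under both an older and a newer name) and of 15 effectors 2. Of these 10 only Plcb4, a phospholipase C that Gq-class alpha subunits can activate, was 2-fold apart. By the same rule 2.38% of 5218 genes were higher in Gnai2-dominant and 2.97% in Gnao1-dominant chambers. Plcb4 was 2.77-fold [2.54–3.02] higher in Gnao1-dominant chambers, at 10 counts in 23 of 65 (35.4% [23.9–48.2]) against 43 of the Gnai2-dominant (14.9% [11.02–19.58]). It met the minimum only in the class where it was higher. The kinases were read under their older names Adrbk1 and Adrbk2. Gnb3, Pcp2, Rgs10, Adcy1 and Adcy8 were not analysed here.

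With at least 200 counts but below the 25% minimum, 9 of 24 list genes were 2-fold higher in Gnai2-dominant chambers and 0 in Gnao1-dominant chambers. Of all 8252 genes in this range 20.5% were 2-fold higher in Gnai2-dominant and 8.35% in Gnao1-dominant chambers, so such ratios were common and leaned the same way. Ric8b, a chaperone of Gs-class alpha subunits, had a ratio of 8.85 [5.75–14.4] and reached 10 counts in 22 Gnai2-dominant against 1 of 65 Gnao1-dominant chambers. Rgs3, which speeds GTP hydrolysis by alpha subunits, had 3.26 [2.81–3.81] and reached 10 counts in 68 (23.6%) against 4 (6.15%). Gnaz, an alpha subunit of the Gi class, had 2.68, Gnb4 3.23, Gng4 3.00, Rgs8 3.75, Rgs17 2.62 and Gprin1 2.05, each at 10 counts in at most 33 Gnai2-dominant and 4 of 65 Gnao1-dominant chambers. Gng11 had 460 counts in 11 chambers at 10 counts or more among the Gnai2-dominant and 2 counts in all Gnao1-dominant ones.

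Gap43, which growing axons of immature neurons carry, served to order chambers within each alpha class. It is read as a marker of younger cells among sorted Omp-positive ones. In the Gnai2-dominant class the highest and lowest tertile of Gap43 per 10000 held 96 chambers each, with a median of 41.5 against at most 1 count of Gap43. Stmn2 and Dcx, other genes of young neurons, were 1.49-fold and 1.92-fold higher in the high tertile, and Omp had a ratio of 0.964 [0.935–0.994]. Gnai2 had medians of 7.13 (2.73 to 16.8) per 10000 in the high and 7.26 (1.24 to 15.7) in the low tertile and a ratio of 0.980 [0.953–1.01]. Gnb1 had medians of 9.48 and 9.76 and a ratio of 0.977 [0.954–1.00], and Gng2 medians of 6.40 and 6.61 and a ratio of 1.01 [0.979–1.04].

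Gng8, known from developing neurons, ran from 4.66 to 29.3 per 10000 with a median of 9.25 in the high tertile and from 1.44 to 22.04 with a median of 8.91 in the low tertile. Its ratio was 1.06 [1.04–1.09], far smaller than that of Stmn2 or Dcx, and the tertiles overlapped almost completely. Gng13 had medians of 5.82 and 5.41 per 10000 and a ratio of 1.09 [1.05–1.12]. Both ratios were smaller when chambers with the sustentacular markers Sox2 or Cyp2a5 were left out. Cbr2, another sustentacular marker, reached 10 counts in 21.9% of Gnai2-dominant chambers and was not used for this. At least 10 counts of Sox2 or Cyp2a5 were held by 8 of 96 chambers in the low and 4 of 96 in the high tertile. Without such chambers, in tertiles formed anew of 89 chambers each, the ratios were 1.02 [0.996–1.05] for Gng8 and 1.04 [1.01–1.08] for Gng13. Gnai2 then stood at 0.940, Gnb1 at 0.942 and Gng2 at 0.957 [0.929–0.986], which for Gng2 is on the other side of 1. The part of the chambers with Sox2 or Cyp2a5 was measured only by leaving them out, which also changes the borders of the tertiles. None of the 5 members that met the 25% minimum was 2-fold apart, where 0.512% of 5075 genes were higher in the high and 0.433% in the low tertile. The sparse members had ratios of 1.21 [1.03–1.41] for Gnas, at 10 counts in 11 against 7 chambers, and 1.09 [0.958–1.24] for Gnb2, in 16 against 13. With chambers split at 10 or more against 2 or fewer counts of Gap43, Gnas had 1.92 [1.67–2.22], with medians of 0 in both groups.

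Gng5 and Gna13, named after their values were seen, and the regulator Rgs3 were at least 2-fold apart. In this comparison 0.433% of 5075 genes were higher in the low tertile. The minimum was met by 2 other alpha subunits, 2 other gamma subunits, 4 chaperones and processing enzymes, 4 regulators and 1 effector. No other of these was 2-fold apart. The 25% minimum is read in the tertile where a gene is higher, and the intervals are too narrow for sparse genes. Gng5, a widely expressed gamma subunit, was 2.43-fold [2.24–2.64] higher in the low-Gap43 tertile of Gnai2-dominant chambers, at 10 counts in 44 against 25 of 96, and Gna13, an alpha subunit that acts on the actin cytoskeleton, was 2.13-fold [1.90–2.39] higher there, at 10 counts in 25 against 12. Rgs3 was 2.03-fold [1.83–2.26] higher there. Without the chambers with Sox2 or Cyp2a5 the ratios of high to low tertile were 0.476 for Gng5, 0.506 for Gna13 and 0.603 for Rgs3, so Rgs3 no longer reached 2-fold and Gna13 came to just under it. Gng11 had 73.4% of its low-tertile counts in those chambers, and 0 counts in the high tertile.

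In the Gnao1-dominant class each tertile held 21 chambers, and 29 of 65 chambers had 0 counts of Gap43, so the low tertile was filled from these in order of depth. Gng8 had medians of 11.05 (5.401 to 14.9) per 10000 in the high and 10.1 (6.60 to 13.5) in the low tertile and a ratio of 1.02 [0.973–1.07]. Gnao1 had medians of 5.33 and 5.19 and a ratio of 1.01 [0.9499–1.0844], and Gnb1 medians of 8.91 and 10.04 and a ratio of 0.958 [0.912–1.01]. Gng2 and Gng13 had higher sums in the high tertile (ratios 1.73 and 2.52), but medians of 5 against 4 and of 5 against 3 counts, and Gng13 reached 10 counts in 3 against 1 chamber. In this class the background was 7.09% of 5569 genes higher in the high and 7.15% in the low tertile, and none of the 5 members that met the minimum was 2-fold apart. Below the minimum Gng13 and Gnb2 (3.24 [2.15–4.98], at 10 counts in 3 against 1 chamber) were 2-fold higher in the high tertile, where 16.4% of 11394 genes with at least 50 counts were higher in the high and 14.6% in the low tertile. Gnas had 1.92 [1.47–2.51], at 10 counts in 4 against 3 chambers. Between the 15 chambers at 10 or more and the 45 at 2 or fewer counts of Gap43, its ratio was 3.89 [3.05–4.98]. Its medians were 0 in both of these groups, and 1 of the 15 chambers held 81 counts of Gnas. The change with Gap43 was not tested between the alpha classes. For Gng8 the intervals of the classes overlap.

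**Figure D4:**
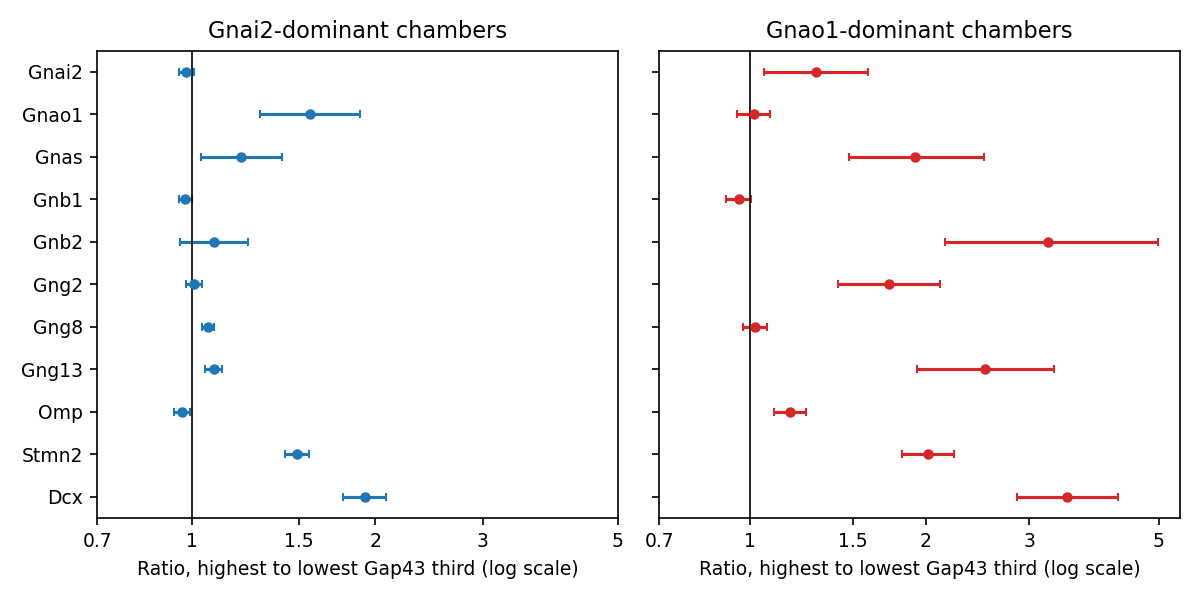
Ratio of the level in the highest to that in the lowest tertile of chambers by Gap43 (x axis, log scale) for the 8 members and for Omp, Stmn2 and Dcx (y axis), in Gnai2-dominant (left, 96 chambers each) and Gnao1-dominant chambers (right, 21 each); points are ratios of summed counts and bars exact 95% intervals that cover counting error only. Gng8 lies at 1.06 and 1.02, near the line at 1, while Stmn2 and Dcx lie at 1.49 and 1.92 or higher.

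Empty chambers held fewer tags of the abundant members, with medians of 22 against 94.5 counts for Gnai2, 12 against 85 for Gng2 and 7 against 72 for Gng13 in single-cell chambers, and of 46 for Gnb1 and 31 for Gng8. Per 10000 counts the order changed: Gnb1 had medians of 18.8 in empty and 9.56 in single-cell chambers, Gng8 15.04 and 9.34, Gnai2 10.1 and 6.46, Gng2 6.03 and 5.75 and Gng13 3.90 and 4.90. On summed counts the ratios of empty to single-cell chambers were 1.72 [1.70–1.75] for Gnb1, 1.46 for Gnai2, 1.22 for Gng8, 1.21 for Gng2 and 0.909 for Gng13, and 1.75 [1.68–1.82] for Gnao1. None of the 5 members that met the minimum was 2-fold apart, in a background of 0.67% of 3283 genes higher in empty and 1.04% in single-cell chambers. The 25 deep empty chambers held 8.14 Gnb1 counts per 10000 at the median, close to single-cell chambers, whereas those below the single-cell lower quartile held 19.5.

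Multiple-cell chambers had levels per 10000 close to those of single-cell chambers, with medians of 7.97 and 9.56 for Gnb1, 8.38 and 9.34 for Gng8, 5.88 and 6.46 for Gnai2, 4.76 and 5.75 for Gng2, 4.14 and 4.90 for Gng13 and 0.102 and 0.120 for Gnao1. Their scaled ratios to single-cell chambers were 0.948 for Gnai2, 0.839 for Gnb1, 0.873 for Gng8, 0.882 for Gng2, 0.932 for Gng13 and 0.810 for Gnao1. Gnas (1.62) and Gnb2 (1.46) had higher sums, reaching 10 counts in 19.05% and 26.98% of multiple-cell chambers against 8.88% and 16.2% of single-cell chambers. None of the 7 members that met the minimum was 2-fold apart, where 0.465% of 5803 genes were higher in multiple-cell and 0.0689% in single-cell chambers. Of the 63 multiple-cell chambers 48 were Gnai2-dominant, 3 Gnao1-dominant and 12 held both.

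The 18 putative single-cell chambers were split evenly, with 8 Gnai2-dominant, 9 Gnao1-dominant and 1 with both. Gnao1 ran from 0 to 12.8 per 10000 with a median of 3.997 and was 2.90-fold [2.70–3.12] above single-cell chambers, and Gng13 ran from 0.0897 to 6.33 per 10000 with a median of 0.544 and was 3.25-fold [2.89–3.66] below them. Gnb1 (median 12.2 per 10000) and Gng8 (median 9.11) had ratios to single-cell chambers of 1.25 and 1.07 on summed counts. Of the 6 members that met the minimum only Gnao1 and Gng13 were 2-fold apart, in a background of 5.23% of 4707 genes higher in putative and 9.26% in single-cell chambers. Chambers of both alpha classes enter these sums.

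**Figure D5:**
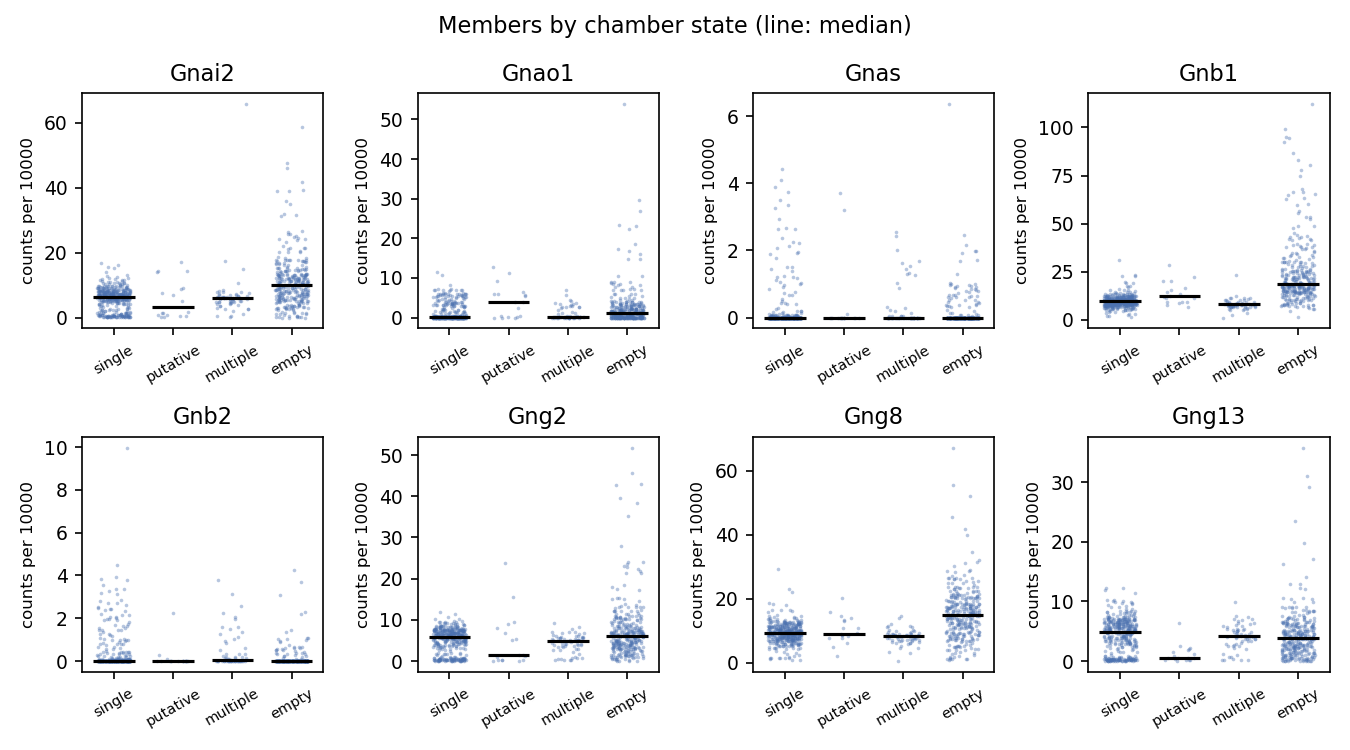
Counts per 10000 (y axis, a scale for each gene) of the 8 members in single-cell, putative single-cell (18), multiple-cell (63) and empty chambers (x axis); points are chambers and lines medians. Empty chambers have the highest medians for Gnb1, Gng8, Gnai2 and Gng2, and putative single-cell chambers have the highest median for Gnao1 and the lowest for Gng13.

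The labelled cell type was checked with marker genes. Omp, a marker of mature olfactory and vomeronasal neurons, reached 10 counts in 97.2% of Gnai2-dominant and 96.9% of Gnao1-dominant chambers. The sort on GFP from the Omp gene had selected such cells, so the Omp shares are no check of the cell type. The apical markers Meis2 and Nrp2 reached 10 counts in 94.1% and 82.99% of Gnai2-dominant chambers and in 7.69% and 6.15% of Gnao1-dominant ones. The basal markers Tfap2e and Robo2 did so in 0% and 2.08% of the former and 52.3% and 69.2% of the latter. Tfap2e had at most 3 counts in a Gnai2-dominant chamber. Its 0 chambers at 10 counts allow a share of up to 1.04%, as 3 divided by the number of chambers. Of the 3 sustentacular markers Cbr2 reached 10 counts in 21.9% and 10.8%, Cyp2a5 in 5.21% and 1.54% and Sox2 in 5.56% and 1.54% of the classes, with summed levels from 0 to 30.5 and from 0 to 18.7 per 10000. Of the 4 main olfactory markers Gnal, Adcy3 and Cnga2 reached 10 counts in at most 3.08% of either class, and Cnga4 in 36.1% and 30.8%. For solitary chemosensory cells, which also use Gng13, Gnat3 had 1 count and Pou2f3 had 0 in both dominant classes together, and Avil reached 10 counts in 3 chambers. Immune, glial, endothelial and basal-cell markers had medians of 0 in both classes, with Cd74 at 10 counts in 6.60% of Gnai2-dominant and Tyrobp in 7.69% of Gnao1-dominant chambers as the highest shares. Trpm5 and Krt5 were not analysed here.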

How the data were processed

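The authors deposited 1 table of counts, without normalization, for 28963 genes; each count is a number of different molecular identifiers of 5 bases. Per the submitters' processing notes, the genome build was GRCm38 (mm10) and the tools were SAMtools 1.5, STAR 2.5.4b, bcl2fastq, featureCounts 1.6.1 (Subread) and UMI-tools 0.5.3, named with no order or settings. All values were whole numbers from 0 to 662, whereas the name of the deposited table speaks of fractional counting of multi-mapping reads and of pseudogenes. How fractions became whole counts is not given in the sources used here. The table has 1 column of reads assigned to no chamber, which was not used. Chambers were grouped by the state in their labels: 325 were empty, 394 held a single cell, 63 multiple cells and 18 were putative single cells. Every single-cell chamber held over 1000 counts and 500 genes, so none was left out, and multiple-cell chambers were kept apart by label with no doublet caller run. The table names chambers and gives no barcodes.

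Ratios compare counts summed over the chambers of a class, each divided by the summed counts of all genes other than receptors (461 genes of the Vmn1r, Vmn2r and Fpr families). A gene counted as apart at 2-fold with at least 50 counts over both groups and at least 10 counts in 25% of the chambers of the higher group. A class with dominance of an alpha subunit needed at least 10 counts and 3 times the other, which gave 288 Gnai2-dominant, 65 Gnao1-dominant, 35 mixed and 6 other chambers. Receptor calls gave 128 V1R chambers (123 of them Gnai2-dominant) and 23 V2R chambers, and 194 and 46 with the correction for position. The text names the 8 members, the 5 genes most correlated with each of Gnai2, Gnao1, Gng2, Gng8 and Gng13 (mean of at least 2 counts; 1 of those of Gng8 is not reported here), and up to 6 genes per pathway list with at least 200 counts and a 2-fold ratio between the alpha classes. Gng3, Gng5 and Gna13 fall outside this rule and were named after their values were seen, as were the chambers with low gamma counts. The members, lists and rules were chosen with earlier results of these data known.

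Positions and exon overlaps came from GENCODE vM21, and promoter windows from RefSeq. A search took 50-base words from the last 1000 bases of member transcripts. Only Gnai2, Gng2 and Gnb2 of the members shared any with another gene: Gnai2 with 239 genes and the others with 1 each. No single gene shared more than 1.44% of the words of a member. The ratio step was run on simulated Poisson counts drawn from a pooled profile. These had no spread between chambers, so the run does not show how the intervals do for genes with many counts in a few chambers. The alternatives tried were other minima, dominance factors, scalings, thinning, subtraction of empty-chamber medians, title positions and sets of chambers. Computation used Python 3.11.15, numpy 2.4.6, pandas 2.3.3 and scipy 1.17.1.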

Additional observations from a re-analysis of the deposited data

How the results depend on the processing

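Over the 18 settings tried for 10 results, 81 values stayed within the interval of the reported value and 50 did not, and the cause was not tested. The ratio of Gng8 with Gap43 in Gnao1-dominant chambers had values on both sides of 1 and so had Gng2 with Gap43 in Gnai2-dominant chambers, at 0.957 without chambers holding Sox2 or Cyp2a5. The other ratios kept their side. With title numbers 1 to 10 and 11 to 20 taken apart, the share of single-cell chambers with both alpha subunits was 10.4% and 26.2%, the ratio of Gnai2-dominant to Gnao1-dominant chambers 13.3 and 7.82 for Gng2, 13.6 and 9.47 for Gng13 and 0.948 and 0.833 for Gng8, the V1R to V2R ratio 13.3 and 5.62 for Gnai2 and 0.0385 for Gnao1 in the first of them, and the Gap43 ratio of Gng8 1.09 and 1.03 in Gnai2-dominant and 0.958 and 1.10 in Gnao1-dominant chambers. With title rows 1 to 20 and 21 to 40 taken apart, Gng13 had 13.2 and 10.03, Gnao1 0.0652 and 0.0332, and Gng8 with Gap43 1.13 and 1.02 in Gnai2-dominant and 1.08 and 0.973 in Gnao1-dominant chambers.

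Subtracting the median of empty chambers gave 10.9% of single-cell chambers with both alphas, 16.9 for Gng2, 14.02 for Gng13, 49.1 for Gnai2, 0.0325 for Gnao1 and 1.03 for Gng8 with Gap43 in Gnai2-dominant chambers. Thinning to 50000 counts gave 7.25% of single-cell and 13.1% of multiple-cell chambers with both alphas, 9.67 for Gng13, 7.26 for Gnai2, 0.0349 for Gnao1 and 1.16 for Gng8 with Gap43 in Gnao1-dominant chambers. Dominance at 10 times the other alpha gave a Gnai2-dominant share of 68.3%, 12.2 for Gng2, 13.03 for Gng13 and 0.923 for Gng8, and at 2 times 8.84 for Gng2 and 8.17 for Gng13. Minima of 5 and 20 counts gave 28.7% and 11.4% of single-cell chambers with both alphas. Means over chambers gave 10.4 for Gng13 and 1.10 for Gng8 with Gap43, and Gap43 at 10 or more against 2 or fewer counts gave 1.03, both in Gnai2-dominant chambers. Leaving out chambers with Sox2 or Cyp2a5 gave 0.921 for Gng8 between the alpha classes and 1.02 with Gap43. Receptor calls corrected for position gave 3.63 for Gnai2 and 0.0734 for Gnao1.

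Leaving out chambers under 50000 counts, and the Gap43 ratios of single genes without Sox2 or Cyp2a5, were chosen after seeing the data. The former left all 10 results within their intervals. No paired analysis was possible because the numbers in the titles only name chambers. A count of 0 at this depth does not show that a subunit is absent, which touches Gnas and Gnb2.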
